A study of Mus musculus with 29 samples.

Results

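Skeletal muscle lacking the p110β catalytic subunit of phosphoinositide 3-kinase was compared with muscle of floxed controls after a fast of about a day. The comparison holds 7 of the 29 libraries of the series, chosen by their sample titles: 4 from fasted M-p110βKO mice and 3 from fasted control mice. All were male mice, 2 to 3 months of age, described as on a C57BL/6J background. M-p110βKO mice carried floxed Pik3cb alleles together with a Cre recombinase under the human α-skeletal actin promoter, which is active in muscle fibers, so other cells of the tissue keep the gene. The controls, titled WT, are p110β-floxed mice by the study's account, so both groups carry floxed alleles. By the supplementary methods, a genome scan found the p110β-floxed mice to be less completely C57BL/6 than the p110α-floxed ones. The same line also gave 3 fed control and 4 fed M-p110βKO libraries, and a second line, with floxed Pik3ca in place of Pik3cb, gave the other 15. RNA was taken from whole muscle and sequenced in bulk, and the libraries are called here by the number in their titles: 23, 24 and 25 for the fasted controls, and 26 to 29 for fasted M-p110βKO.

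Class I phosphoinositide 3-kinases turn a membrane lipid into the signal that recruits AKT, and in muscle this is the main path by which insulin promotes glucose uptake and restrains protein breakdown. The p110α subunit is best known downstream of the insulin receptor, while p110β can also be engaged by G protein-coupled receptors. In fasting, insulin falls, AKT activity declines, and FOXO transcription factors move into the nucleus, where they switch on genes of autophagy, of the proteasome and of the insulin receptor substrate IRS2. The question asked of these libraries is what the loss of p110β in fibers changes in that fasted state.

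The deposited values are read counts per gene, and each fasted library of the line held between 6203710 and 8599227 assigned reads (the 29 libraries together ran from 5351935 to 11653239). Levels are given as CPM, counts scaled to a common total of assigned reads with TMM factors. The fast glycolytic fiber myosin gene Myh4 stood between 53962 and 71390 CPM in all 7 libraries, as skeletal muscle would. Adipocyte transcripts set some libraries apart: adiponectin (Adipoq), which fat cells secrete, stood at 19.2 CPM in control 23 and 24.8 CPM in control 24, and at 0.436 CPM or less in the other 5 libraries. Perilipin 1 (Plin1), the coat protein of the fat cell's lipid droplet, stood at 26.1 and 22.5 CPM in those same libraries and at 0.291 CPM or less elsewhere. The brown fat gene Ucp1 had 1 read in control 23 and 0 reads in the other 6 libraries. The labels say only that the tissue was skeletal muscle, without the dissection, while the study's legends name TA muscle for its RNA-Seq; a part of dissection in these levels was not tested. The third control, 25, stood apart in another direction: Myh7, the myosin of slow fibers, was at 35.1 CPM there and between 0.741 and 4.65 CPM in the other 6 libraries, and Mmp13 and Ibsp, genes of cartilage and bone, were at 12.5 and 6.09 CPM (scaled by library size alone) against 0.161 CPM or less. The share of reads from the mitochondrial genome was 8.12% and 7.73% in controls 23 and 24, 10.2% in control 25, and 10.7% to 12.2% in the knockouts.

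**Figure D1:**
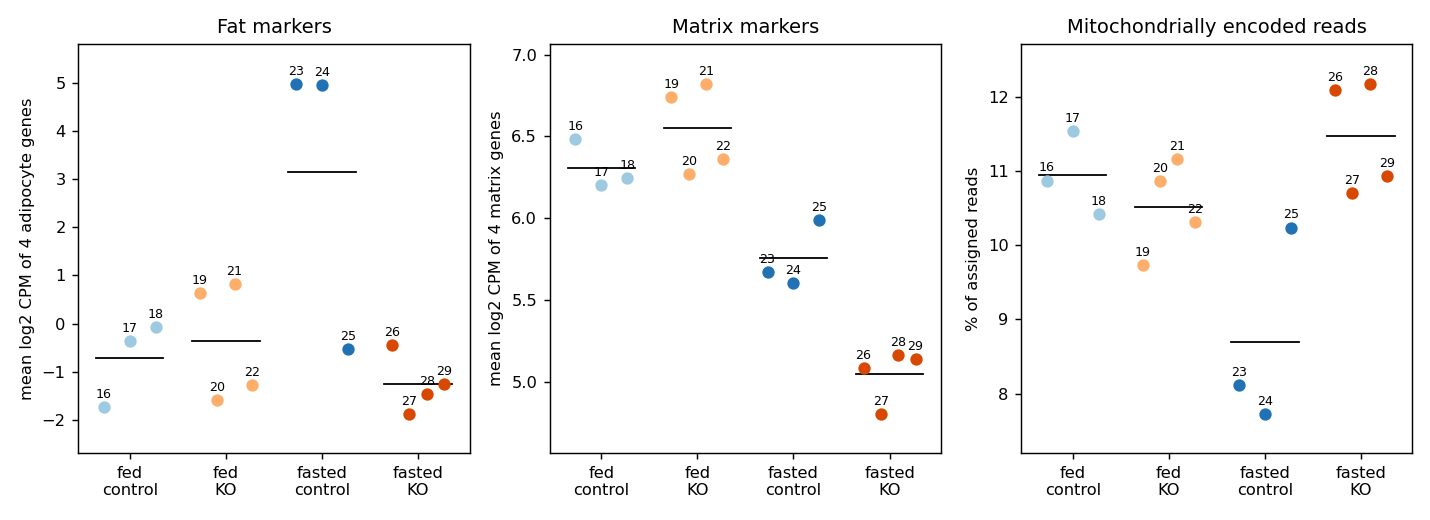
Each point is a library of the p110β line, numbered as in its title, with the group mean as a bar. The panels plot the mean log2 CPM of 4 adipocyte genes (Adipoq, Plin1, Cidec, Cfd), the mean log2 CPM of 4 matrix genes (Col1a1, Col1a2, Col3a1, Dcn) and the percentage of assigned reads from the mitochondrial genome; fasted controls 23 and 24 lie near 5 for the fat genes, and all 4 fasted knockouts lie below all 3 fasted controls for the matrix genes.

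Pairs of libraries were also unequally close. A chi-square statistic per degree of freedom over at least 10378 genes, which is near 1 for repeat sequencing of one library, was 7.14 between controls 23 and 24 but 18.1 and 21.2 between each of them and 25. It was 4.43 between knockouts 26 and 29, and 14.5 to 24.5 in the other 5 knockout pairs. Neither pair agreed within sampling noise, so each library was kept as its own replicate, but the labels do not say that they came from separate animals, and p-values here measure only the spread between these libraries.

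The deleted gene was looked at first. Pik3cb stood at 8.73, 9.34 and 10.3 CPM in controls 23, 24 and 25, and at 10.3, 9.39, 9.63 and 9.73 CPM in knockouts 26 to 29. The groups overlapped, with a log2 difference of 0.04 ± 0.14 (SE). By PCR, the study reported reduced p110β mRNA in hindlimb muscle of M-p110βKO mice, a fall that these counts did not show. Only the second exon of the gene is removed in this line. A count over the whole gene in whole muscle does not check that deletion. The reason for the disagreement was not tested. The partner catalytic gene Pik3ca, for p110α, was between 107 and 136 CPM in controls and between 131 and 156 CPM in knockouts, a log2 difference of 0.26 ± 0.12 that did not pass the test (adjusted p = 0.350) and was 0.05 against control 25 alone. Pik3r1, which encodes the regulatory subunit p85α, was at 123 and 118 CPM in knockouts 26 and 29, and at 44.0 and 57.1 CPM in knockouts 27 and 28, against 54.4 to 71.7 CPM in controls, so the spread within the knockouts exceeded the difference between groups. None of the 15 tested genes of the class I and related PI3K list passed, and their median log2 difference was 0.19, against -0.00065 over all genes.

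Of 12249 genes tested with edgeR's quasi-likelihood test over the 14 libraries of the line, 109 passed a Benjamini-Hochberg adjusted p of 0.05, which is 0.89% of all. Of these, 36 genes were higher in the knockout (0.294%) and 73 lower (0.596%). The median fold was 1.83 for the higher genes and 2.50 for the lower ones. Before adjustment, 754 genes were higher and 865 lower at p under 0.05. Every knockout stood above every control for 33 of the 36 higher genes, beside 4.81% of all genes tested. For the 73 lower genes, every knockout stood below every control in 58, beside 5.35%. The called genes were chosen for low p in these same libraries. Their separation was therefore largely fixed beforehand and is no support for the calls. In these bulk libraries, fewer cells of a type and less RNA per cell cannot be told apart. The called genes were spread over the genome, with 5 on chromosome 9, where Pik3cb lies (GRCm38 chr9:99036654-99140621), the nearest of them, Col12a1, 19.4 Mb away.

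The calls depend on which controls are used. With control 25 as the only control, 25 genes were lower (0.194% of 12895 tested) and 4 higher (0.031%), and 12 of these 29 were among the 109. With 1 library in the control arm, the spread in that fit comes from the other groups and control 25 is assumed to vary as they do, so every value given against control 25 alone also carries what is peculiar to that library. Of the 109, 105 kept their sign there and 71 also had an unadjusted p under 0.05, but 28 of the 73 lower genes and 2 of the 36 higher ones fell to at most 0.5 times their log2 difference or changed sign. With controls 23 and 24 only, 393 genes were called, 97 of them among the 109. When the close pairs of the line were summed into single samples, no gene passed in edgeR's test. There, 944 genes had an unadjusted p under 0.05. Of the 109, 108 had the same sign and such a p in that fit. The 109 were chosen for low p in the same reads. Agreement in sign or p in these refits was therefore largely fixed beforehand and is no support for the calls. In a fit on the 7 fasted libraries alone, 1 gene passed, Htra4.

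**Figure D2:**
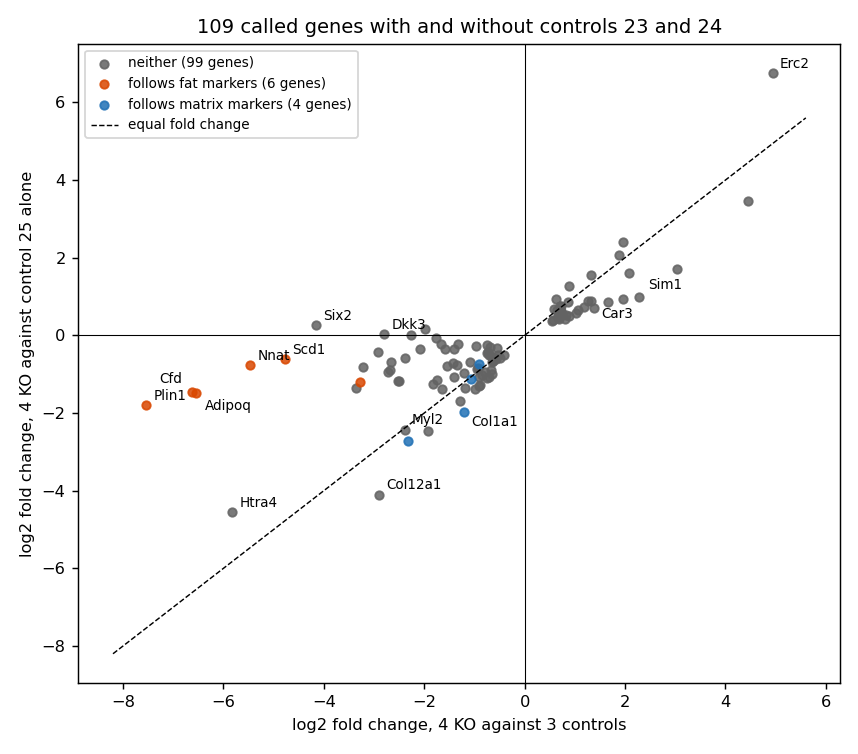
Each point is 1 of the 109 called genes, with its log2 difference (knockout minus control) against all 3 fasted controls on the horizontal axis and against control 25 alone on the vertical axis. Colour marks genes that follow the fat or the matrix markers across the 22 libraries outside the comparison; Plin1, Cfd, Adipoq, Scd1, Six2 and Dkk3 lie far above the dashed line of equal difference, while Col12a1 and Col1a1 lie below it.

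In all, 7 genes passed both against control 25 alone and against controls 23 and 24 alone, as well as in the whole comparison: 5 were lower (Srxn1, Ppp1r10, Gabarapl1, Thbs1 and Col12a1) and 2 higher (Trim7 and Plekhh3). These 7 were singled out after their values had been seen. Both fits used the same knockouts and the same fed libraries, as did the whole comparison, so their results are not separate support for these genes. The genes are described first, with the limit just given for a control arm of 1 library.

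Srxn1 encodes sulfiredoxin, which repairs over-oxidised peroxiredoxins and is a known target of the antioxidant factor NRF2. It stood at 144, 157 and 180 CPM in the controls and at 80.0, 106, 97.7 and 88.2 CPM in the knockouts. No knockout reached the lowest control, and the log2 difference was -0.78 ± 0.11 (edgeR, adjusted p = 0.00468). It was -0.95 against control 25 alone and -0.68 against controls 23 and 24. In fed muscle the same gene stood at 13.4 to 16.4 CPM in controls and at 18.3 to 21.5 CPM in knockouts. Fasted knockouts were thus far above fed ones, while staying below fasted controls, and the difference between the fasted and the fed knockout effect was itself called (-1.14 ± 0.18, adjusted p = 0.0218).

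Gabarapl1 encodes an ATG8-family protein of the autophagosome membrane and is a classical FOXO target in fasting muscle. It was at 67.1, 65.8 and 98.9 CPM in the controls, and at 46.5, 46.3, 45.5 and 51.0 CPM in the knockouts. The 4 knockouts lay within a narrow band under all controls (log2 difference -0.71 ± 0.13, adjusted p = 0.0164). Fed libraries of both genotypes lay between 14.6 and 20.1 CPM. Ppp1r10, a nuclear regulatory subunit of protein phosphatase 1, was 25.9, 28.5 and 32.9 CPM in controls and 17.5, 14.1, 16.0 and 16.7 CPM in knockouts (-0.86 ± 0.13, adjusted p = 0.00468).

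Thbs1, for the matricellular glycoprotein thrombospondin 1, was 11.3, 10.8 and 17.2 CPM in controls and 6.09, 4.20, 4.81 and 6.38 CPM in knockouts (-1.29 ± 0.25, adjusted p = 0.0164). Col12a1, a collagen of tendon and muscle attachment sites, was 13.2 CPM in control 25, 2.40 and 1.92 CPM in controls 23 and 24, and 0.371 to 1.12 CPM in knockouts. Its log2 difference was -2.90 ± 0.58 in all, and ranged from -4.10 against control 25 to -1.49 against the other pair.

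Trim7, an E3 ubiquitin ligase that binds the glycogen primer glycogenin, was higher in the knockouts at 13.6, 16.4, 15.5 and 14.5 CPM, against 9.62, 8.32 and 6.25 CPM in the controls (0.89 ± 0.15, adjusted p = 0.00618). Plekhh3 was higher at 29.2, 29.4, 34.2 and 31.7 CPM against 20.9, 22.8 and 16.4 CPM (0.63 ± 0.12, adjusted p = 0.0164). Both genes were also higher in every fed knockout than in every fed control, though neither passed there: Trim7 by 0.36 ± 0.12 and Plekhh3 by 0.50 ± 0.11.

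**Figure D3:**
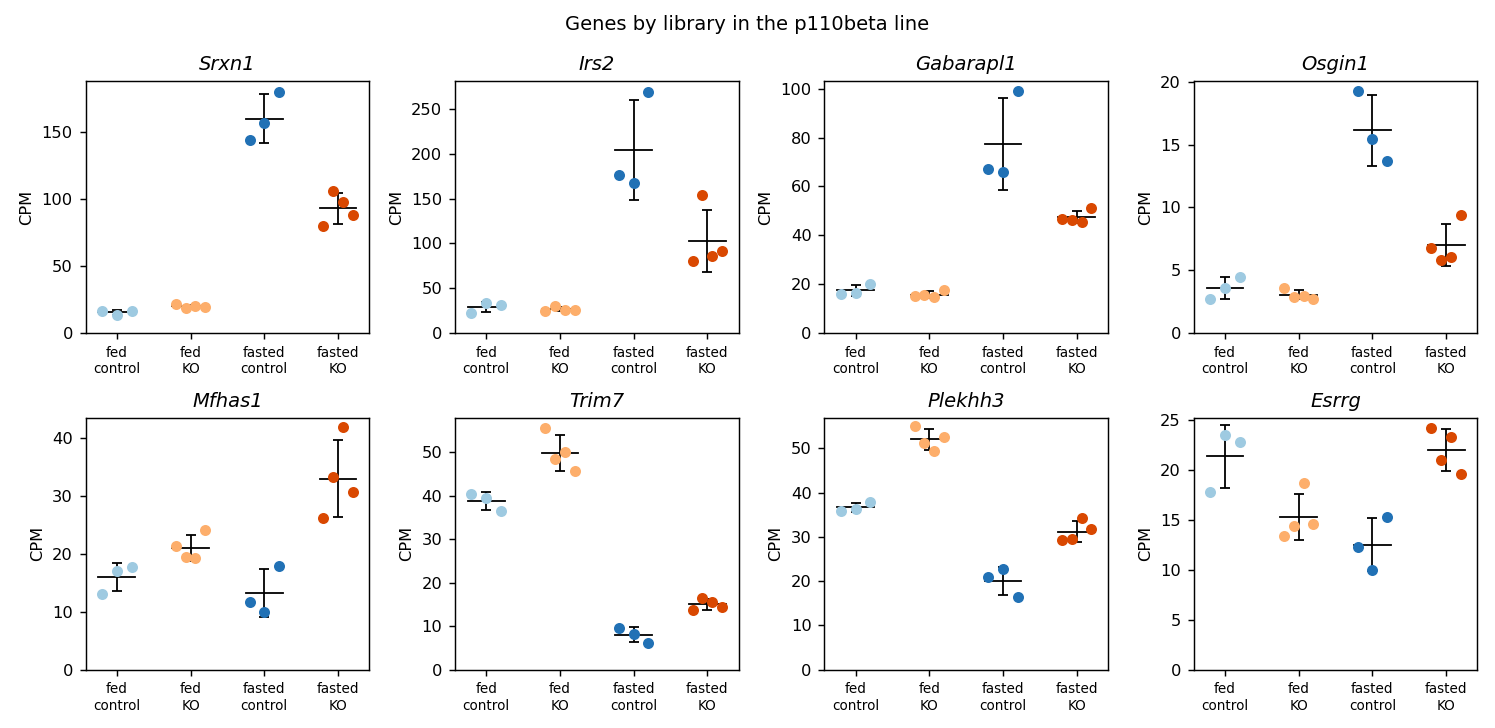
Each point is a library of the p110β line and the vertical axes are in CPM, starting at 0; bars give the mean and SD of each group. Srxn1, Irs2, Gabarapl1 and Osgin1 lie lower, and Mfhas1, Trim7, Plekhh3 and Esrrg higher, in all 4 fasted knockouts than in all 3 fasted controls.

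The stretches upstream of Srxn1, Osgin1, Ftl1, Irs2 and Gabarapl1, all lower in the knockouts, were searched. The 3 with a match are shown. Srxn1 is on the antioxidant list and Gabarapl1 on the autophagy list, while Osgin1 is on neither and was picked with its values in view. The sequences are the 250 bases before the transcription start in RefSeq on GRCm38.p6, 5′ to 3′ on the gene's strand. Capitals mark matches, on either strand, to TGANTCAGC (the consensus of NRF2 with small Maf proteins) in the first pair and to TAAACA (a forkhead core) in the last.
Srxn1 (chr2:152105274-152105523, plus strand): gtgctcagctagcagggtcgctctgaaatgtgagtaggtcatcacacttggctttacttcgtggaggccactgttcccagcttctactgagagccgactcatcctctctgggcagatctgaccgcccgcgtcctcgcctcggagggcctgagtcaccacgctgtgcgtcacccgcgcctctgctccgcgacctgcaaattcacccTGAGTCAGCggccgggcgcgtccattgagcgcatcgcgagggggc
Osgin1 (chr8:119436897-119437146, plus strand): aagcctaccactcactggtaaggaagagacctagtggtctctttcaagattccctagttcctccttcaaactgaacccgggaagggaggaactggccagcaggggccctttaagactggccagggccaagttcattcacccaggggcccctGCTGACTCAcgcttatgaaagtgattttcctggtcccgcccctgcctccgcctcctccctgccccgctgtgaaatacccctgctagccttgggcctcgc
Gabarapl1 (chr6:129532942-129533191, plus strand): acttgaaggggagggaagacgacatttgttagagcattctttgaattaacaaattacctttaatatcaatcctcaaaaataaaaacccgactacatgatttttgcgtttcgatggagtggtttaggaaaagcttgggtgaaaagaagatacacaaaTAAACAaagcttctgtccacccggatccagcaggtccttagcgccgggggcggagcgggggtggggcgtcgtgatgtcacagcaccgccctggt
TGANTCAGC occurred in 1.02% and TAAACA in 12.0% of the 32851 promoter stretches of this length. A broader antioxidant pattern searched first, TGACNNNGC, occurred in 10.2% of them and in neither Srxn1 nor Osgin1. The searched stretch of Ftl1 held no TGANTCAGC, and that of Irs2 no TAAACA. A match of letters is a description and not evidence of binding.

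Other genes that were lower with all knockouts below all controls had stronger or weaker differences depending on the control. Irs2, the insulin receptor substrate that rises when insulin falls, was 176, 168 and 269 CPM in controls and 80.0, 154, 86.1 and 91.4 CPM in knockouts. Knockout 27 came close to the lower controls and the other 3 stood near 90 CPM (-0.99 ± 0.20, adjusted p = 0.0221). Impact, an inhibitor of the GCN2 stress kinase, was 90.2, 97.1 and 141 CPM against 74.9, 71.3, 55.1 and 60.1 CPM (-0.74 ± 0.15, adjusted p = 0.0213). The transcription factor gene Tbx3 was 12.9, 15.2 and 21.8 CPM against 7.89 to 9.30 CPM (-0.91 ± 0.19, adjusted p = 0.0234). These 3 genes, together with Atp2a2 and Col1a1, passed against control 25 alone, in which their levels were higher than in controls 23 and 24, but not against those controls alone.

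Osgin1, an oxidative stress-induced growth inhibitor, was 19.2, 15.5 and 13.7 CPM against 6.73, 5.81, 6.02 and 9.41 CPM (-1.22 ± 0.19, adjusted p = 0.00555). Ftl1, the light chain of the iron store ferritin, was 200, 200 and 167 CPM against 110, 109, 120 and 132 CPM (-0.68 ± 0.13, adjusted p = 0.0164).

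Catsper4, known as a sperm cation channel subunit, was 26.6, 26.5 and 19.3 CPM in controls and 10.7, 10.0, 5.62 and 10.4 CPM in knockouts (-1.40 ± 0.21, adjusted p = 0.00468). Htra4, a secreted serine protease, was 11.8, 6.27 and 2.91 CPM in controls and had 3 reads in all over the 4 knockouts against 162 over the 3 controls. The pooled ratio was 67.1, with a 95% exact interval from 22.6 to 329 that covers counting error only. Fed knockouts were lower in Htra4 as well, at 0.577 to 2.57 CPM against 1.58 to 10.3 CPM, with the groups overlapping. Wfs1, for the endoplasmic reticulum protein wolframin, had nearly equal controls (95.2, 93.5 and 92.2 CPM) above all knockouts (56.9, 61.5, 76.2 and 64.9 CPM).

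In all, 16 genes passed whichever single fasted library was left out: 13 were lower (among them Srxn1, Aoc3, Htra4, Catsper4, Scd1, Ppp1r10, Osgin1, Plin1, Cfd, Myl2, Adipoq and Thbs2) and 3 higher (Mfhas1, Myhas and Trim7). Leaving out 1 library at a time keeps either control 23 or control 24, so the fat genes of the list pass this criterion too.

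Among the higher genes, Mfhas1, an intracellular regulator of Toll-like receptor signalling, had the lowest p. It was 11.8, 9.98 and 17.9 CPM in controls and 26.1, 33.2, 41.8 and 30.6 CPM in knockouts (1.33 ± 0.19, adjusted p = 0.00468). Esrrg, for the nuclear receptor ERRγ that drives oxidative genes in muscle, was 12.3, 9.98 and 15.3 CPM against 24.2, 21.0, 23.3 and 19.6 CPM (0.82 ± 0.16, adjusted p = 0.0187). In fed muscle the order of the groups was turned, with 21.4 ± 3.13 CPM in 3 controls and 15.3 ± 2.32 CPM in 4 knockouts (mean ± SD).

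Among the higher genes with separated groups and a mean log2 CPM of at least 1 over the 14 libraries, the largest differences were those of Pla2g5, Sim1, Gm43063 and Car3; Pla2g5 met that level through the fed libraries and was low in the fasted ones. Car3, carbonic anhydrase III, which is abundant in slow fibers and in fat, was 348, 312 and 1361 CPM in controls and 1970.1, 3130.1, 3506 and 1863 CPM in knockouts (1.96 ± 0.38, adjusted p = 0.0175). Controls 23 and 24 were the lowest libraries, and against control 25 alone the difference was 0.95. Sim1, a transcription factor gene, showed the same pattern with 0.759, 0.896 and 5.96 CPM in controls and 9.23 to 13.3 CPM in knockouts (2.28 ± 0.43). Pla2g5, a secreted phospholipase A2, was 0 to 0.582 CPM in controls and 1.12 to 2.67 CPM in knockouts (3.03 ± 0.64), and the intronic transcript Gm43063 was 1.65 to 3.05 against 3.21 to 15.1 CPM (2.07 ± 0.40).

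Scn3b, a sodium channel β subunit, was 2.15, 2.05 and 5.67 CPM in controls against 7.21 to 15.6 CPM (1.66 ± 0.36), and Mpped2 was 2.15 to 5.09 against 6.57 to 11.9 CPM (1.38 ± 0.29). Tmem100, a membrane protein of the BMP pathway in vessels, was 4.22 to 5.95 against 8.29 to 18.9 CPM (1.32 ± 0.24). Mamstr, a coactivator of MEF2 in muscle, was 4.56 to 9.74 against 11.2 to 27.7 CPM (1.26 ± 0.27), and Cnksr3 was 3.97 to 8.43 against 10.8 to 14.1 CPM (1.02 ± 0.21). All 5 passed with adjusted p between 0.0124 and 0.0320.

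Erc2, a presynaptic active zone scaffold, had 53 reads over the knockouts and 1 over the controls, a pooled ratio of 42.6 with a counting interval from 7.33 to 1716; it was low in every library, at 2.27 CPM or less. Of the 36 higher genes, 7 are not annotated as protein coding. They include Myhas, an antisense transcript of the fast myosin cluster, at 17.7, 19.5 and 17.7 CPM in controls and 25.6 to 33.3 CPM in knockouts, and H19, an imprinted noncoding RNA. The use of strand in the counting is not given in the sources used here, so reads of Myhas and of the myosin genes it overlaps could not be separated. H19 stood at 81.0, 81.8 and 135 CPM in controls and at 184, 121, 384 and 206 CPM in knockouts, and the groups overlapped (1.17 ± 0.27, adjusted p = 0.0440).

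The largest falls were in genes of adipocytes. Plin1 had 384 reads over the 3 controls and 2 over the 4 knockouts, and all except 2 of the control reads came from controls 23 and 24. Adipoq had 349 and 4 reads. Both genes were already known to mark controls 23 and 24 when the comparison was chosen, so their values are a description. Complement factor D (Cfd), the protease adipsin, was at 57.2 and 52.7 CPM in controls 23 and 24, 1.02 CPM in control 25 and 0 to 0.962 CPM in knockouts. Scd1, the desaturase that makes monounsaturated fatty acids, was at 211 and 190 CPM in controls 23 and 24, 7.71 CPM in control 25 and 2.84 to 7.21 CPM in knockouts. Cebpa, a transcription factor of fat cell differentiation, was 8.22, 7.29 and 1.45 CPM against 0.535 to 1.44 CPM.

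All 5 were among the 109. Against control 25 alone, none of them passed, with log2 differences of -1.79 for Plin1, -1.50 for Adipoq, -1.45 for Cfd, -0.62 for Scd1 and -0.69 for Cebpa. Of the 23 measured genes on the adipocyte list, 14 passed the filter on low counts; Cidec and Lep, which were at 34.2 and 13.0 CPM in control 23, did not; their reads were high in controls 23 and 24 and at most 5 in each of the other fasted libraries. Of the 14, 5 were lower and Car3 was higher. The summed level of the whole list does not follow its fat-specific members: it was 3301 to 3630 CPM in the controls and 4309 to 6156 CPM in the knockouts, and Car3 and Lpl, which muscle fibers express too, made up more of it than any other member.

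Several other lower genes had the same pattern, with controls 23 and 24 high and control 25 at the level of the knockouts. The differentiation factor gene Six2 was 5.31, 4.74 and 0.145 CPM in controls and 0.134 to 0.247 CPM in knockouts. Dkk3, a secreted protein of the Dickkopf family, was 161, 145 and 15.1 CPM against 4.28 to 31.8 CPM, and Mss51, which regulates muscle mitochondria, was 41.6, 46.2 and 6.54 CPM against 2.14 to 14.3 CPM. Sod3, the extracellular superoxide dismutase, was 9.49, 10.1 and 1.60 CPM against 1.36 to 2.27 CPM, and its log2 difference was -1.99 with all controls and 0.16 against control 25. Cdo1, C4b and Chst1, for cysteine dioxygenase, complement C4 and a sulfotransferase, lost most of their difference in the same way.

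Whether a gene goes with fat or matrix was also measured outside the comparison. Over the 22 other libraries, centred on their group means, 11 genes correlated at 0.7 or more with the 4 fat markers and 64 with the 4 matrix markers. Of the 73 lower genes, 6 were in the fat set (Plin1, Cfd, Adipoq, Nnat, Scd1 and Hp), 4 in the matrix set (Tnc, Col1a1, Lum and Lrp1), and 63 in neither; none of the 36 higher genes was in either. Plin1, Cfd, Adipoq and Col1a1 are themselves among the 8 markers, so these 4 were bound to correlate and 6 of the 10 were not part of the marker means. These correlations share libraries with low fat levels, so a gene outside the sets is not shown to be a fiber gene.

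Most matrix genes had differences below 0. Of 34 tested fibroblast and matrix genes, 33 had a log2 difference below 0 and 17 had an unadjusted p under 0.05. Of all 12249 genes tested, 865 were lower at such a p. On the list 2 genes passed, both lower, beside 0.596% of all genes called lower. They were Col1a1, the main chain of type I collagen, and Lum, the keratan sulfate proteoglycan lumican. Col1a1 was 18.5, 18.4 and 48.6 CPM in controls and 12.7, 12.4, 12.6 and 11.6 CPM in knockouts (-1.20 ± 0.26, adjusted p = 0.0320). The 4 knockouts were nearly equal, and control 25 was well above the other controls, with a difference of -1.98 against it alone. Lum was 6.07, 7.29 and 6.98 CPM against 2.27 to 3.71 CPM (-1.08 ± 0.23, adjusted p = 0.0247). The list's median was -0.40 with all controls and -0.28 against control 25, beside medians over all genes of -0.00065 and 0.01. Its summed level was 1196 to 1542 CPM in controls and 818 to 1073 CPM in knockouts, with no overlap. In fed muscle the median was 0.22.

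Of the 7 tested tendon and cartilage genes, Col12a1 and Tnc passed. Tnc, the matrix protein tenascin C, was 2.78, 2.56 and 4.07 CPM in controls and 0.247 to 1.20 CPM in knockouts (-2.33 ± 0.48, adjusted p = 0.0234). Thbs2 and Lrp1, for thrombospondin 2 and the scavenger receptor that clears it, were also lower, with Lrp1 at 61.1, 58.6 and 50.6 CPM against 33.0, 21.9, 31.0 and 36.0 CPM. Markers of other cell types stood as follows beside them: 9 of 10 tested Schwann cell genes were below 0 (median -0.68, 5 at an unadjusted p under 0.05, 0 passed). Macrophage genes had a median of -0.47 with 0 of 10 passing, and endothelial genes one of 0.10 with 0 of 18. Smooth muscle and pericyte genes had a median of -0.20 (0 of 15 passed), and erythrocyte genes one of -0.48 (0 of 5). Against control 25 alone the medians were -0.55 for Schwann cell, -0.15 for macrophage and -0.11 for endothelial genes. They were -0.36 for smooth muscle and -0.53 for erythrocyte genes. The summed Schwann cell level was 50.9 CPM in knockout 27, 111 to 138 CPM in the other knockouts and 156 to 183 CPM in controls. In fed muscle the medians of the Schwann cell, macrophage and endothelial lists were -1.12, 0.54 and -0.05. The part of these cell types in the lower genes was not tested.

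Of all genes tested, 0.89% were called, and at that share a short list can hold no call. The calls on the insulin signalling and protein breakdown lists stand beside that share. On the insulin and AKT list, 1 of 36 passed (Irs2), and the median was -0.08. Foxo1 stood at 153 to 183 CPM in controls and 110 to 189 CPM in knockouts. On the atrophy list 0 of 25 passed, with an unadjusted p under 0.05 for 3 above and 2 below the controls. Fbxo32, the ubiquitin ligase atrogin-1, was 2801, 2992 and 3455 CPM against 3471, 2301, 1712 and 3330.5 CPM, and Trim63, the ligase MuRF1, was 5713, 5358 and 6471 CPM against 4730.0, 3358, 1931 and 5299 CPM. Knockouts 26 and 29 lay nearer to the controls for both ligases than knockouts 27 and 28 did. On the proteasome list 0 of 46 passed (median 0.02).

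Autophagy genes mostly had small differences below 0: 36 of 44 lay there, 10 were lower at an unadjusted p under 0.05, and Gabarapl1 alone passed (median -0.09). Ulk1, the kinase that starts autophagy, differed by -0.57, Map1lc3b by -0.30 and Gabarap by -0.30, with adjusted p above the threshold, and by -0.77, -0.34 and -0.37 against control 25 alone. Lysosomal genes had a median of -0.20, 54 of 64 below 0 and 17 with an unadjusted p under 0.05. The proton pump subunit gene Atp6v1b2 passed, at 111, 109 and 123 CPM in controls and 84.3, 82.5, 88.5 and 88.0 CPM in knockouts (-0.41 ± 0.09, adjusted p = 0.0408). Against control 25 alone the list's median was -0.07.

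The genes of the mitochondrial genome had the largest positive median of the lists, 0.39 over 13 genes, with 12 above 0, 9 at an unadjusted p under 0.05 and 0 passing in edgeR (2 in DESeq2 and 1 in limma-voom). The complex I gene mt-Nd1 was 20739, 21529 and 24957 CPM in controls and 30257 to 34714 CPM in knockouts, with no overlap (0.50 ± 0.12, adjusted p = 0.0546). Against control 25 alone the median was 0.11, beside the lower mitochondrial share of controls 23 and 24 given above. Nuclear genes of mitochondrial proteins had medians near 0. They were 0.05 for complex I (0 of 37 passed), 0.05 for complexes III and IV and ATP synthase (0 of 39), 0.04 for the TCA cycle (0 of 28) and -0.05 for fatty acid oxidation (0 of 34).

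The calls on the fuel lists stand beside the same 0.89% of all genes tested. Scd1 was among the calls on the lipogenesis and cholesterol list (2 of 28). Slc1a5, a glutamine transporter, was the call among 12 amino acid transporters, at 32.8, 36.5 and 12.8 CPM against 7.54 to 13.9 CPM, and its difference of -1.32 fell to -0.22 against control 25. Phgdh, the first enzyme of serine synthesis, was the call among 20 genes of the integrated stress response, at 3.80, 3.71 and 1.16 CPM against 0.247 to 0.797 CPM. Glycolysis (0 of 29), glycogen (0 of 17) and branched-chain amino acid genes (0 of 26) had no calls. In the antioxidant and NRF2 list, Srxn1 and Sod3 were the 2 calls of 28, with 19 genes below and 9 above 0. The median was -0.11, and -0.01 against control 25 alone. Txnrd1 (-0.33), Gclc (-0.36) and Hmox1 (-0.75) lay below 0 and Prdx3 (0.24) above it, without passing.

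**Figure D4:**
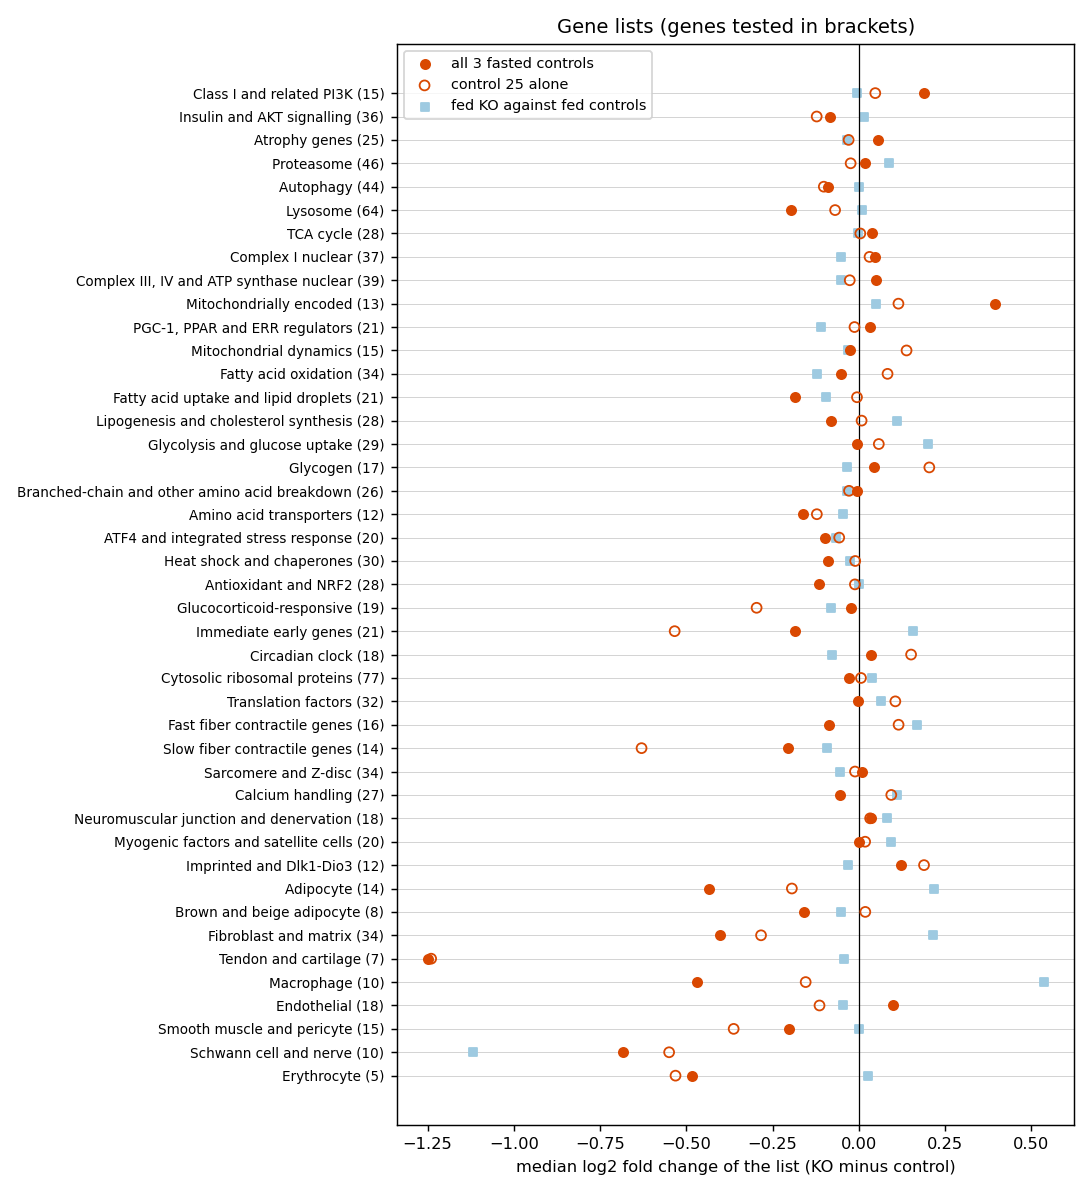
Each row is a gene list of at least 5 tested genes, and the horizontal axis is the list's median log2 difference (knockout minus control). Filled circles use all 3 fasted controls, open circles control 25 alone and squares the fed groups; tendon genes lie near -1.25 with either set of fasted controls, mitochondrially encoded genes fall from 0.39 to 0.11, and slow fiber and immediate early genes lie lower against control 25.

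Among contractile genes, calls fell on the slow fiber list and on the Z-disc. Of 14 slow fiber genes 2 passed, both lower: Myl2, the slow and cardiac regulatory light chain, at 8.98, 7.17 and 8.43 CPM in controls and 1.28, 2.97, 0.535 and 1.28 CPM in knockouts (-2.39 ± 0.38, adjusted p = 0.00555), and Atp2a2, the slow calcium pump SERCA2, at 87.8, 81.0 and 127 CPM against 61.1, 54.6, 75.8 and 61.1 CPM (-0.64 ± 0.15, adjusted p = 0.0440). Myl2 was alike in all 3 controls, unlike Myh7, and stood between 0.240 and 1.22 CPM in the fed libraries of both genotypes. Sln, for the pump inhibitor sarcolipin, differed by 2.09 without passing. Fast fiber genes had 0 of 16 calls, with Myh4 at 0.08 ± 0.12. Flnc, which encodes the Z-disc crosslinker filamin C, was the call among 34 sarcomere genes, at 1253, 1171 and 1219 CPM against 619, 934, 921 and 652 CPM (-0.64 ± 0.15, adjusted p = 0.0442). Ryr3, a minor ryanodine receptor, was higher at 1.11 to 2.27 CPM against 0.291 to 0.512 CPM (1.97 ± 0.45, adjusted p = 0.0435).

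Immediate early genes, which respond within minutes to stimuli and to handling, depended on control 25. None of 21 passed with all controls (median -0.19), but 4 were called lower against control 25 alone (median -0.53), a library in which Fos stood apart, at 24.7 and 21.7 CPM in controls 23 and 24, 94.7 CPM in control 25 and 5.25 to 26.3 CPM in knockouts (here scaled by library size alone). Clock genes (0 of 18), cytosolic ribosomal proteins (0 of 77) and translation factors (0 of 32) had no calls and medians within 0.04 of 0.

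In the fed state the same genotypes gave no call in edgeR (0% of 12249), where before adjustment 517 genes lay above and 543 below the controls at p under 0.05. DESeq2 called 30 and limma-voom 0. Of the 109 genes called in fasted muscle, 56 had the same sign in fed muscle, 15 of them at an unadjusted p under 0.05, and 6 had such a p with the opposite sign.

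The knockout effect differed between feeding states for 13 genes by the interaction test (0.106% of genes), and 9 of them were among the 109. Among the lowest p were those of Srxn1, given above, Gm45221, Cyp26b1, Esrrg and Gm13340. Esrrg differed by 0.82 in fasted and -0.48 in fed muscle, an interaction of 1.30 ± 0.22 (adjusted p = 0.0385). Cyp26b1, which degrades retinoic acid, was not called in either state alone, but stood at 5.58 ± 2.10 CPM in fed controls and 0.766 ± 0.462 CPM in fed knockouts, against 3.34 to 4.10 and 2.84 to 9.62 CPM in fasted ones (interaction 3.67 ± 0.63, adjusted p = 0.0385). Gm45221 behaved likewise (2.95 ± 0.47), and Gm13340, an unprocessed pseudogene whose reads may be shared with near-identical copies, differed by 0.74 in fasted and -0.32 in fed muscle. The count rested on single libraries: limma-voom gave 0 genes, and no gene passed when library 17, 19, 24, 26 or 28 was left out.

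The fasted controls enter both the knockout comparison and any comparison with fed controls, so the following levels are set side by side without a test. Most of the lower genes described above were higher in fasted than in fed controls: Irs2 was 22.3 to 33.7 CPM in fed controls and 24.8 to 30.4 CPM in fed knockouts, and Impact was 24.5 to 28.6 and 22.2 to 30.5 CPM. Ppp1r10 was 11.4 to 13.0 and 10.8 to 15.1 CPM, and Osgin1 was 2.68 to 4.45 and 2.74 to 3.59 CPM. For each of these genes the fasted knockouts lay between the fed levels and the fasted controls, with Ppp1r10 in knockout 27 within the fed range. Trim7 ran the other way, at 36.4 to 40.3 CPM in fed controls and 45.5 to 55.4 CPM in fed knockouts.

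**Figure D5:**
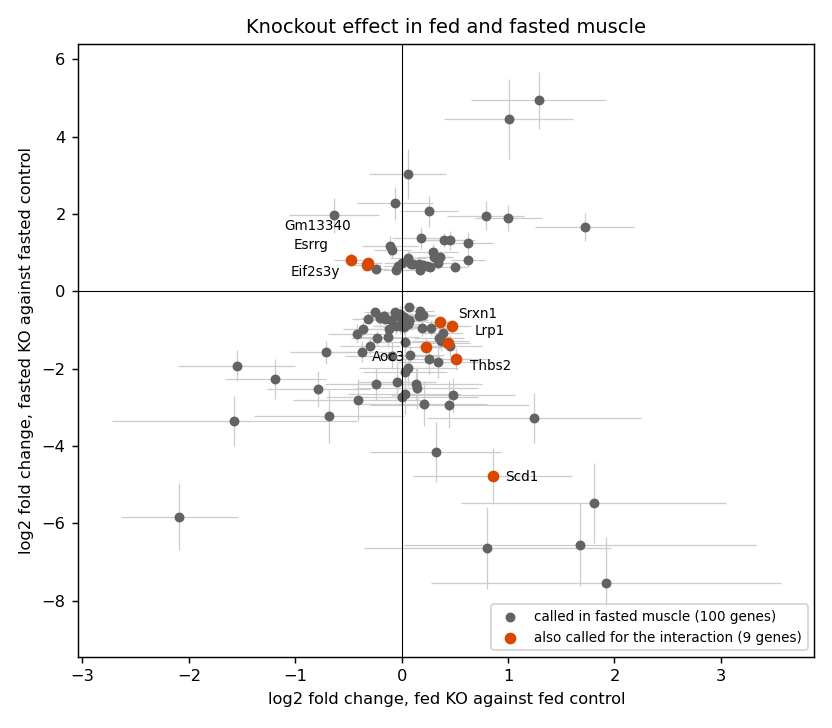
Each point is 1 of the 109 genes called in fasted muscle, with its log2 difference in fed muscle on the horizontal axis, its difference in fasted muscle on the vertical axis, and SE as grey bars. The 9 genes in colour also passed the interaction test; among them Srxn1, Aoc3, Lrp1, Thbs2 and Scd1 are below 0 in fasted and above 0 in fed muscle, and Esrrg, Gm13340 and Eif2s3y the reverse.

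The fasted effect was also set against that of p110α deletion in the other line, whose libraries are separate and whose genetic background differs, so that the target and the background of the lines cannot be told apart. The effects differed for 623 of 12760 genes (4.88%), and for 51 of the 109. The fasted p110β libraries that chose the 109 also enter this contrast. A higher share among the 109 is therefore built in and does not show that their effects belong to this line. Esrrg differed by 0.82 against -0.39 ± 0.14 (1.22 ± 0.21, adjusted p = 0.00250), and Ftl1 by -0.68 against 0.50 ± 0.14 (-1.18 ± 0.20, adjusted p = 0.00181). Of the 109, 12 were also called in fasted p110α knockout muscle, 10 with the same sign and 2 with the opposite one, beside 8.57% of the 12760 genes tested called in that comparison. Plekhh3 rose there by 0.75 ± 0.14, Mfhas1 by 1.05 ± 0.22, Trim7 by 0.65 ± 0.19 and H19 by 1.68 ± 0.25, and their differences between the lines did not pass.

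The 6 genes with the lowest p for the difference between the lines (Aldoart1, Gm9061, Snrnp48, Tmem9, Mtch1 and Gm12286) were not called in fasted M-p110βKO muscle. Aldoart1, an aldolase retrogene, differed by -0.11 ± 0.20 here and by 2.53 ± 0.20 in the p110α line, and reads of such copies may be split with their parent genes. Without controls 23 and 24 the number of genes that differed between the lines was 34.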

How the data were processed

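Per the labels, total RNA of skeletal muscle was sequenced as mRNA libraries, and the submitters' processing notes name STAR, Subread featureCounts and GRCm38; no source used here gives their versions. The deposited table holds the authors' raw read counts for 48023 genes in 29 libraries, with no normalization. Symbols and positions came from GENCODE M21 (47310 genes matched), sequences from RefSeq on GRCm38.p6.

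Libraries were grouped by title. Genes were kept by edgeR's filterByExpr (minimum count 10, minimum total 15), scaled by TMM, and tested with edgeR 4.0.16 (R 4.3.3) by a quasi-likelihood fit on the 14 libraries of the p110β line, with contrasts for the fasted groups, the fed groups and their interaction; a fit on all 29 libraries gave the difference from the p110α line. Errors of log2 differences are SE, taken as the absolute log2 difference divided by the square root of the quasi-likelihood F. They therefore carry no information beyond that test. Adjusted p-values are Benjamini-Hochberg values from these edgeR fits over all genes tested, at a threshold of 0.05. DESeq2 1.42.0 and limma 3.58.1 were alternatives, and the script was tested on simulated data. CPM carry TMM factors unless stated, and intervals cover counting error only. Genes were named as the members called on 44 gene lists, the 12 largest separated differences in each direction among genes whose mean log2 CPM was 1 or more, and the 6 lowest p of the interaction and of the line difference; Mfhas1, Ppp1r10, Thbs1, Plekhh3 and others outside these were picked with their values in view. A few genes are not reported here. The members and lists were chosen with earlier results of these data known. The authors' own comparisons were not used, apart from the reported reduction of p110β mRNA.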

Additional observations from a re-analysis of the deposited data

Results flagged for a closer look

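In the fasted M-p110βKO group, 2 of the 42 genes checked had 1 library far from the other 3, by the gap to its nearest neighbour over the group's range. For Irs2 the gap was 0.846 of the range, with knockout 27 high at 154 CPM and the other 3 at 80.0 to 91.4 CPM. For Htra4 it was 0.834, with knockout 27 at 0 CPM and the others at 0.134 to 0.160 CPM, which is 1 read each. The Htra4 gap is therefore 1 read against none. Chance flags about 1 group in 20, so 2 of 42 is about what chance gives.

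For 13 genes the knockout effect differed between fasted and fed muscle by the interaction term of the edgeR fit. Among them, the fasted minus fed log2 difference was -1.14 for Srxn1, -1.38 for Lrp1, -1.52 for Dnajb1, -1.66 for Aoc3, -2.83 for Kif5c, -2.25 for Thbs2 and -5.62 for Scd1. It was 2.95 for Gm45221, 3.67 for Cyp26b1, 1.30 for Esrrg, 1.06 for Gm13340 and 1.02 for Eif2s3y. Scd1 was high in controls 23 and 24 only, and its fasted difference was -0.62 against control 25 alone.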

How the results depend on the processing

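In the fasted comparison the 36 higher and 73 lower calls moved by over 1.5 times under several alternatives. They were 212 and 342 with no filter beyond 1 read, 55 and 118 with DESeq2, 2 and 15 with the adipocyte marker score as a covariate, 4 and 25 without controls 23 and 24, 0 and 1 in the fasted libraries alone, and 0 and 0 with close pairs summed, an alternative added after seeing the data. The higher calls were 19 with the matrix covariate and the lower calls 28 with limma-voom. Leaving out 1 fasted library gave 5 (without 23) to 160 (without 25) higher and 20 (without 23) to 233 (without 25) lower calls; without 24, 26, 27, 28 and 29 they were 8 and 25, 21 and 32, 75 and 174, 23 and 44, and 23 and 33. DESeq2 size factors, upper-quartile factors, 1 CPM in 3 libraries, the GC and length correction and the removal of the most abundant genes kept both counts within 1.5 times.

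The 13 interaction calls became 6 with upper-quartile factors, 377 with no filter, 40 with DESeq2, 4 with the GC and length correction, 7 without controls 23 and 24, and 0 with limma-voom, the matrix covariate or close pairs summed; leaving out 1 library gave 0 (without 17) to 141 (without 25). The 623 genes that differed between the lines became 32 with the adipocyte covariate, 217 with the GC and length correction, 34 without controls 23 and 24 and 119 with close pairs summed, and 178 (without 24) to 956 (without 25) when 1 fasted library was left out. The cause was not tested. The 10 lower genes that follow fat or matrix markers were 14 and 8 at correlations of 0.6 and 0.8.

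Among 39 named calls, signs turned for Adipoq (0.019) and Sod3 (0.39) with the adipocyte covariate and for Sod3 (0.16) without controls 23 and 24, none of them passing there; Six2 (0.26), Dkk3 (0.02) and Mss51 (0.0023), outside the 39, also turned without these controls. Of the 39, 7 stayed called without these controls and 16 in limma-voom. No paired analysis was possible because the groups share no replicate numbers.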
